A study of Mus musculus with 8 samples.

Results

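Plasma cells are the antibody-secreting end stage of the B lineage, and the genes described here are factors that drive that stage or parts of the machinery that builds and exports antibody. They were chosen by name from the deposited count table: Xbp1, Prdm1 and Pou2af1, which act in transcription, Jchain, Mzb1 and Sdc1, which act in antibody assembly or mark the plasma cell surface, and Derl3, Creld2 and Edem1, which act in the endoplasmic reticulum (ER). Of 10 names on the list, 9 had a row among the 13786 genes of the table, and the tenth, Slamf7-none, matched no row. The immunoglobulin genes themselves are not rows of the table, so antibody transcripts were not analysed here. RNA was sequenced from CD11c-positive splenocytes of female mice at 7 weeks of age, 4 of the control strain C57BL/6 and 4 of the lupus-prone strain B6.SLE123, to compare dendritic cell transcriptomes between the strains. B6.SLE123 mice are C57BL/6 congenic animals that carry 3 lupus susceptibility intervals (Sle1, Sle2 and Sle3) of New Zealand origin together, so a strain difference cannot be assigned to one interval. The study describes animals of this age as not yet showing overt disease. By flow cytometry it nevertheless reports more plasma cells in their bone marrow and spleen, and more dendritic cells in their spleen, than in C57BL/6 mice. The strain was taken from the sample names, because the genotype field carries a running number that differs in each sample. CD11c is carried by dendritic cells and also by some macrophages and B cells, so the preparation is not one cell type.

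In a B cell that becomes a plasma cell, Blimp-1, the product of Prdm1, represses the B cell programme, and XBP1 expands the ER and its secretory capacity. XBP1 protein is made in its active form only after the ER sensor IRE1, encoded by Ern1, splices the Xbp1 transcript, a step that gene counts do not show. Both factors are also used outside the B lineage: Xbp1 is needed by dendritic cells and many secretory cells, and Prdm1 acts in macrophages, dendritic cells and T cells. Jchain, Mzb1, Sdc1 and Derl3 are known mainly from plasma cells, although plasmacytoid dendritic cells transcribe Jchain and Mzb1 as well.

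Secretory genes can carry binding elements for the unfolded protein response in their promoters, and the promoters of 4 members are shown to give these elements in place. RefSeq promoter windows on GRCm38.p6, the same assembly as mm10, were at hand for 8 of the 9 members and run from 250 bases before to 50 bases after the annotated start. The ER stress response element (CCAAT and CCACG with 9 bases of any kind between them), which ATF6 and XBP1 can bind together with NF-Y, was searched on both strands and was present in 0.119% of 32851 windows. Of the members, Derl3 and Creld2 held it. The unfolded protein response element (TGACGTGG) was present in 0.676% of windows and, of the members, in Pou2af1. The octamer ATGCAAAT, the site of the proteins that Pou2af1 coactivates, was in 1.74% of windows and in 0 of the members. Below, the 250 bases before the start are printed 5′ to 3′ on the strand of the gene, with the element in capitals. They are Derl3 (chr10:75893148-75893397, plus strand, element on the other strand at positions -156 to -138 from the start), Creld2 (chr15:88819396-88819645, plus strand, element on the other strand at -126 to -108), Pou2af1 (chr9:51213440-51213689, plus strand, element at -61 to -54) and, for comparison, Jchain (chr5:88527898-88528147, minus strand), in whose window none of these letters was found.
Derl3: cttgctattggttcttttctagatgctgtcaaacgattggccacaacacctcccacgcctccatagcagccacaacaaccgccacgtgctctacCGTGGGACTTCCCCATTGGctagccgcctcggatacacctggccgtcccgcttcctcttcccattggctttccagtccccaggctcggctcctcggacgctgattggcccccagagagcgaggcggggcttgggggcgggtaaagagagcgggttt
Creld2: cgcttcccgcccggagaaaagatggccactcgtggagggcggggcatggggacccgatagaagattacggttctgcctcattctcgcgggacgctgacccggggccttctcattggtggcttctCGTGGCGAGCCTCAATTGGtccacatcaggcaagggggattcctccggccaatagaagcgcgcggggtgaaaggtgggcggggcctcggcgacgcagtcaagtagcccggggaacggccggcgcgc
Pou2af1: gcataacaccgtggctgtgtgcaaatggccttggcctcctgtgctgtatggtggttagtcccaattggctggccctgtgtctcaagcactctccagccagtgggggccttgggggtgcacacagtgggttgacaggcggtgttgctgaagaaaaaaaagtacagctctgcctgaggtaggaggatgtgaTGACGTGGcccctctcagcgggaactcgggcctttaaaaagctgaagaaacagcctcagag
Jchain: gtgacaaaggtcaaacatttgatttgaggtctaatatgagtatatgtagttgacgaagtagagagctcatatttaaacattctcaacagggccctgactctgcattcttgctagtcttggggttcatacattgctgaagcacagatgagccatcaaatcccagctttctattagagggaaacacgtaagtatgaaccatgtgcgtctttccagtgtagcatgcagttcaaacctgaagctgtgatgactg

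Counts summed to between 25563070 and 37367094 per mouse, and expression is given below as CPM, read counts scaled to the TMM-normalised library size. Marker genes counted in this paragraph as higher or lower in B6.SLE123 mice passed the test given below, at an adjusted p under 0.05. Of all genes, 26.7% were higher and 26.6% lower by this test. Dendritic cell markers were present in every mouse, with 6 genes of this kind (Itgax, Flt3, Zbtb46, H2-Aa, H2-Ab1 and Cd74) summing to between 22300 and 26100 CPM in C57BL/6 mice and to between 27600 and 29000 CPM in B6.SLE123 mice. All 6 were higher. The summed level of 9 red pulp macrophage markers was between 10300 and 12900 CPM in C57BL/6 mice and between 1450 and 2860 CPM in B6.SLE123 mice, and all 9 were lower. Of 4 B cell markers (Cd79a, Cd79b, Ms4a1 and Pax5), 3 were lower, with sums of 307 to 363 CPM against 214 to 276 CPM. The sums of 9 plasmacytoid dendritic cell markers were 484 to 509 CPM against 374 to 434 CPM. Of these genes 2 were higher and 3 lower, 55.6% called against 53.4% of all genes. The 8 T and NK cell markers summed to 36.3 to 57.1 CPM against 30.2 to 47.5 CPM. Only 1 of these 8 passed as lower, though the fold change of each was downward. The 6 type 1 conventional dendritic cell markers summed to 1270 to 1560 CPM against 1570 to 2430 CPM, with 4 higher and 1 lower. The 10 proliferation genes summed to 524 to 581 CPM against 986 to 1330 CPM, with all 10 higher. The sums of 5 plasma cell markers (the members Jchain, Mzb1 and Sdc1 with Tnfrsf17 and Slamf7), most of which is Slamf7, were 362 to 406 CPM against 362 to 402 CPM, with 2 genes higher and 1 lower, and Tnfrsf17 was at 0 in 1 mouse. In bulk RNA, fewer cells of a type and less RNA per cell cannot be told apart, and the part that these shifts have in the results below was not tested. B6.SLE123 replicate 3 ranked high for the genes described here: it had the highest CPM of its strain for 9 of the 9 members, against 22.8% of all genes in the table. Its lead over the next mouse of its strain ranged from 1.86-fold for Jchain and 1.66-fold for Mzb1 down to near ties. It was 1.05-fold for Sdc1 and 1.01-fold for Pou2af1 and for Creld2. The fold change of each member and the number of genes called in each group of lists are therefore also given without this mouse.

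Jchain, Mzb1 and Derl3 were each about 2-fold higher in B6.SLE123 mice, whereas Prdm1 was 2.48-fold lower and Xbp1 1.31-fold lower. Creld2 was 1.23-fold higher, and Sdc1, Pou2af1 and Edem1 did not pass the test. In all, edgeR's quasi-likelihood test, at an adjusted p under 0.05, called 6 of the 9 members, 4 higher and 2 lower, where 53.4% of all genes were called (26.7% higher, 26.6% lower). A more than 2-fold change was shown by 4 of the 9 members (3 higher, 1 lower), where 11.1% of all genes changed as much (2.76% higher, 8.29% lower). The 3 rises depended on B6.SLE123 replicate 3 for this threshold. When it was left out, the log2 fold changes of Jchain, Mzb1 and Derl3 were 0.81, 0.74 and 0.95, below 2-fold, and that of Prdm1 was -1.48. Mzb1 was also below 2-fold without C57BL/6 replicate 1 (0.94) or C57BL/6 replicate 2 (0.96). For 5 of the 9 members the CPM ranges of the strains were separate, as they were for 48.9% of all genes. The median log2 fold change, given throughout as B6.SLE123 over C57BL/6, was 0.30 for the members and -0.002 for all genes. Without B6.SLE123 replicate 3, 5 of the 9 members passed, because Creld2 did not (log2 fold change 0.26, edgeR adjusted p = 0.0686).

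**Figure D1:**
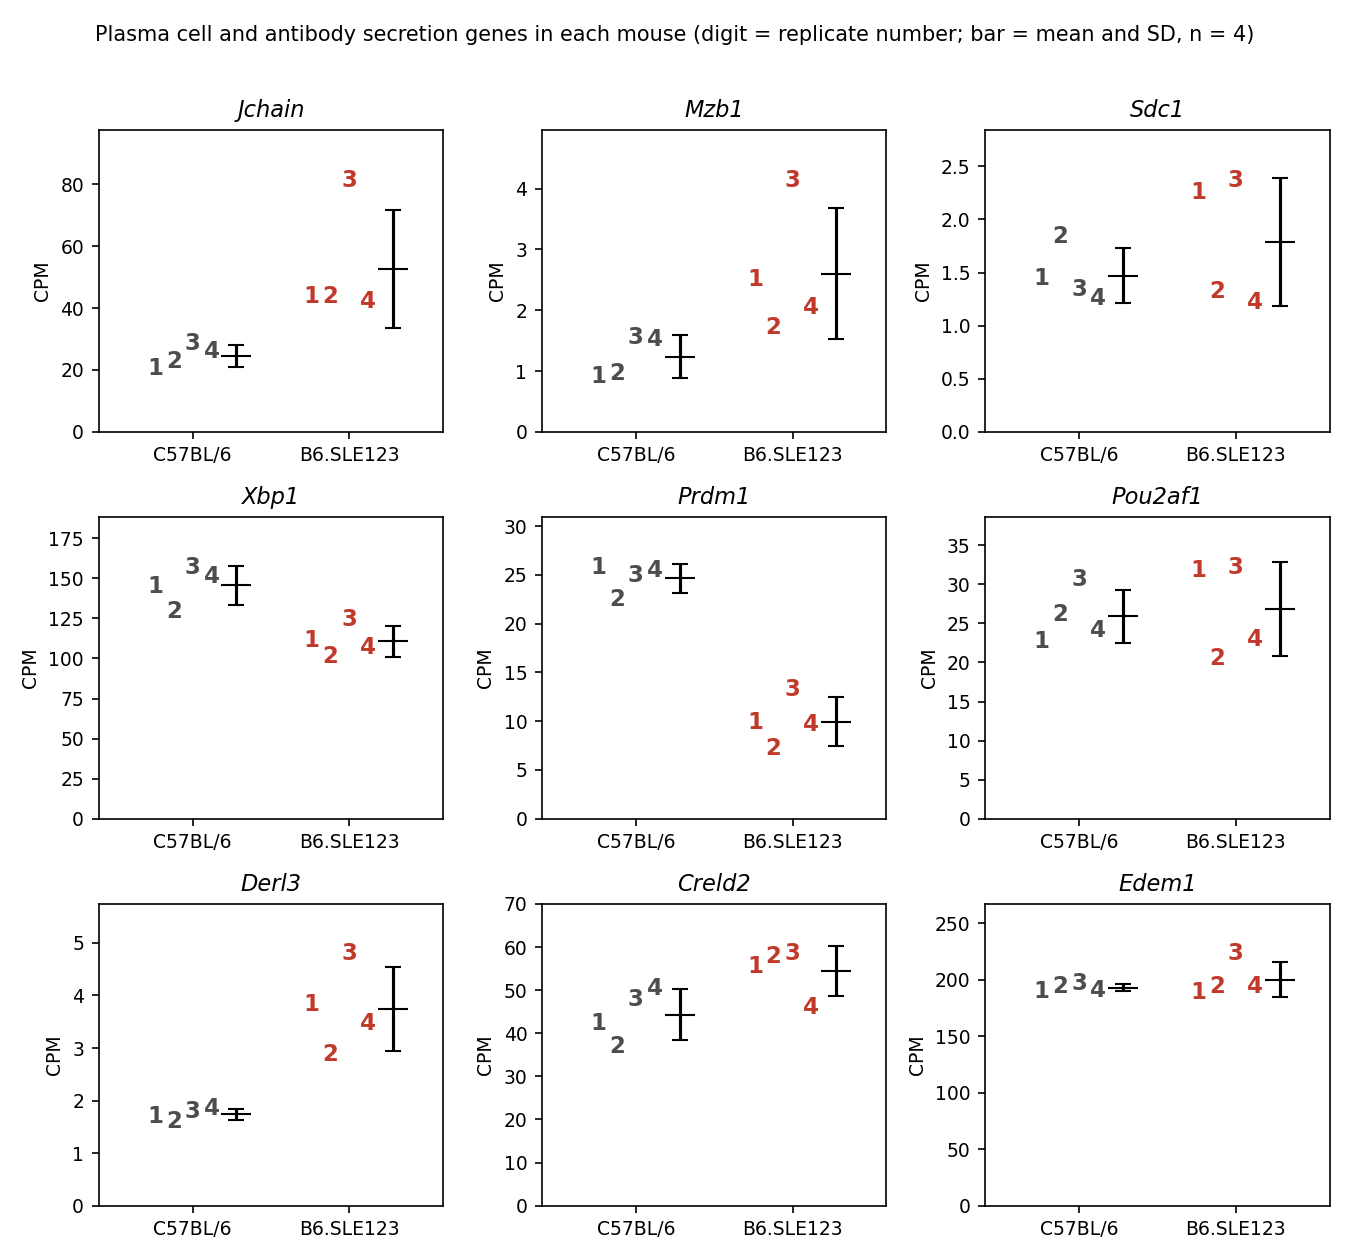
Expression of the 9 members in each mouse, in CPM on linear axes that start at 0; each digit is the replicate number of a mouse of its strain, and the bar gives the mean and SD (n = 4). Jchain, Mzb1 and Derl3 are higher and Xbp1 and Prdm1 lower in all 4 B6.SLE123 mice than in any C57BL/6 mouse, and replicate 3 is the highest B6.SLE123 mouse in every panel.

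Jchain encodes the joining chain that links IgM and IgA into polymers, and it lies on chromosome 5 from 88519809 to 88527891 (mm10, minus strand). The 4 C57BL/6 mice had 20.5, 22.7, 28.6 and 26.1 CPM of Jchain (replicates 1 to 4), and the 4 B6.SLE123 mice had 43.6, 43.7, 81.3 and 42.0 CPM. The B6.SLE123 mice all lay above the C57BL/6 mice, and replicate 3 was 1.86-fold above the next mouse of its strain, while the other 3 were close together. The means were 24.5 ± 3.59 CPM and 52.7 ± 19.1 CPM (SD, n = 4), a log2 fold change of 1.10 (standard error 0.21, edgeR adjusted p = 0.001). Without B6.SLE123 replicate 3 the log2 fold change was 0.81 (edgeR adjusted p = 7.84e-05).

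Mzb1 encodes an ER chaperone that assists the assembly of immunoglobulin heavy and light chains. It was rare: the reads numbered 24, 25, 51 and 46 in the C57BL/6 mice and 79, 64, 140 and 52 in the B6.SLE123 mice, which is 0.908, 0.96, 1.56 and 1.52 CPM against 2.50, 1.72, 4.14 and 2.05 CPM. The strains did not overlap, although B6.SLE123 replicate 2 was only just above the highest C57BL/6 mouse. Its log2 fold change was 1.06 (standard error 0.30, edgeR adjusted p = 0.012), and without B6.SLE123 replicate 3 it was 0.74 (edgeR adjusted p = 0.0289). In the annotation Mzb1 overlaps SPATA24 on the same strand, so its reads are uncertain.

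Sdc1 encodes syndecan-1 (CD138), the surface protein by which plasma cells are usually gated, and lies on chromosome 12 from 8771323 to 8793715. It had 38, 48, 44 and 38 counts in the C57BL/6 mice and 71, 49, 80 and 31 counts in the B6.SLE123 mice. In CPM this was 1.44, 1.84, 1.34 and 1.26 against 2.25, 1.32, 2.37 and 1.22. Replicates 1 and 3 of B6.SLE123 lay above all C57BL/6 mice, and replicates 2 and 4 did not. The log2 fold change was 0.30 with a 95% interval from -0.26 to 0.85 (edgeR adjusted p = 0.343), and it was 0.13 without B6.SLE123 replicate 3.

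Xbp1, on chromosome 11 from 5520659 to 5525893, moved the other way. The C57BL/6 mice had 145, 129, 157 and 151 CPM and the B6.SLE123 mice 111, 101, 124 and 107 CPM, so the strains did not overlap. Its means were 146 ± 12.2 CPM and 111 ± 9.66 CPM (SD, n = 4), and the log2 fold change was -0.39 (standard error 0.07, edgeR adjusted p = 0.000982). Without B6.SLE123 replicate 3 it was -0.45. Counts cover the spliced and the unspliced transcript together.

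Prdm1, on chromosome 10 from 44437177 to 44528501, showed the largest fall of the members. It was at 25.8, 22.5, 24.9 and 25.4 CPM in C57BL/6 mice and at 9.84, 7.18, 13.2 and 9.64 CPM in B6.SLE123 mice. The gap between the lowest C57BL/6 mouse and the highest B6.SLE123 mouse was wider than the spread within either strain. The log2 fold change was -1.31 (standard error 0.14, edgeR adjusted p = 2.36e-05), and -1.48 without B6.SLE123 replicate 3. The red pulp macrophage markers moved in the same direction (median log2 fold change -2.45), and their part in the fall of Prdm1 was not tested.

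Pou2af1 encodes the coactivator OBF-1 (OCA-B), which works with octamer-binding factors in B cells and is needed for germinal centres, and lies on chromosome 9 from 51213708 to 51240080. Its level was 22.7, 26.1, 30.6 and 24.1 CPM in C57BL/6 mice and 31.8, 20.5, 32.2 and 22.9 CPM in B6.SLE123 mice. The values of the strains were interleaved, with a log2 fold change of 0.05 and a 95% interval from -0.28 to 0.38 (edgeR adjusted p = 0.79), and it was -0.05 without B6.SLE123 replicate 3. Within B6.SLE123, replicates 1 and 3 were the higher pair, as they were for Sdc1. Pou2af1 overlaps Gm47828 on the same strand, so its reads are uncertain.

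Derl3 encodes a Derlin, a membrane protein that moves misfolded proteins out of the ER, and lies on chromosome 10 from 75893413 to 75895941. It was at 1.70, 1.61, 1.80 and 1.85 CPM in C57BL/6 mice (42 to 59 counts) and at 3.83, 2.88, 4.79 and 3.46 CPM in B6.SLE123 mice (88 to 162 counts). Among the C57BL/6 mice the values were nearly the same, and every B6.SLE123 mouse was above them. The means were 1.74 ± 0.107 CPM and 3.74 ± 0.804 CPM (SD, n = 4), and Derl3 had a log2 fold change of 1.10 (standard error 0.17, edgeR adjusted p = 0.000316), or 0.95 without B6.SLE123 replicate 3. Its relatives Derl1 and Derl2, which most cells use, had log2 fold changes of -0.25 (edgeR adjusted p = 0.00634) and -0.08 (edgeR adjusted p = 0.131).

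Creld2 encodes an ER-stress-inducible protein with disulfide isomerase activity, and lies on chromosome 15 from 88819646 to 88826683. It was at 42.2, 37.0, 47.8 and 50.3 CPM in C57BL/6 mice and at 55.5, 57.7, 58.4 and 45.9 CPM in B6.SLE123 mice. Replicate 4 of B6.SLE123 lay within the range of the C57BL/6 mice, and the other 3 lay above it. The log2 fold change was 0.30 (standard error 0.10, edgeR adjusted p = 0.0276). When single mice were left out the call was lost 5 of 8 times, without C57BL/6 replicate 1 or 2 or without B6.SLE123 replicate 1, 2 or 3, where the edgeR adjusted p was between 0.0617 and 0.0737.

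Edem1, a lectin-like protein that hands misfolded glycoproteins to degradation, is encoded on chromosome 6 from 108828641 to 108859356. Its values were 190, 194, 197 and 191 CPM in C57BL/6 mice and 189, 194, 223 and 194 CPM in B6.SLE123 mice. Replicate 3 of B6.SLE123 was the only mouse outside a narrow range. The log2 fold change was 0.05 with a 95% interval from -0.07 to 0.17 (edgeR adjusted p = 0.449), and the value was -0.006 without B6.SLE123 replicate 3.

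Levels of different genes were compared as CPM per kb of exon. In C57BL/6 mice Xbp1 was the highest member at 44.9 ± 3.76 CPM per kb (SD, n = 4), followed by Creld2 at 32.4 ± 4.34 and Edem1 at 29.9 ± 0.476, which overlapped each other. Pou2af1 at 10.1 ± 1.35 and Jchain at 9.74 ± 1.43 CPM per kb also overlapped, and Prdm1 came next at 4.42 ± 0.264. Mzb1 at 1.02 ± 0.288 and Derl3 at 0.874 ± 0.0535 overlapped, and Sdc1 was lowest at 0.386 ± 0.068 CPM per kb. In B6.SLE123 mice Creld2 (39.8 ± 4.24), Xbp1 (34.2 ± 2.97) and Edem1 (31.0 ± 2.41) were the highest, each overlapping the next, and Jchain rose to 20.9 ± 7.60 CPM per kb, where B6.SLE123 replicate 3 overlapped the range of Edem1. Pou2af1 was at 10.5 ± 2.37. Mzb1 (2.14 ± 0.885), Derl3 (1.88 ± 0.404) and Prdm1 (1.78 ± 0.441) overlapped in this order, and Sdc1 was again lowest at 0.469 ± 0.158 CPM per kb.

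Other genes known from plasma cells moved in both directions. Of 18 such genes outside the members, 17 were in the table (Ly6k had no row), and 10 passed the test, 6 higher and 4 lower (9 without B6.SLE123 replicate 3). This is 58.8% of the list, near the 53.4% of all genes. Their median log2 fold change was 0.11. Tent5c, whose poly(A) polymerase stabilizes transcripts of secreted proteins such as immunoglobulins, rose most, from 43.6 ± 3.38 CPM to 96.5 ± 10.3 CPM (SD, n = 4, log2 fold change 1.15, edgeR adjusted p = 1.15e-06). Unlike for Jchain, its lowest B6.SLE123 mouse was replicate 3, at 85.0 CPM. Fcrl5, an Fc receptor-like protein of B and plasma cells, was at 6.24, 6.37, 7.84 and 5.33 CPM in C57BL/6 mice and at 8.76, 9.60, 17.5 and 9.76 CPM in B6.SLE123 mice (log2 fold change 0.82, edgeR adjusted p = 0.00784, and 0.54 without B6.SLE123 replicate 3). Ell2, an elongation factor that favours the secreted form of immunoglobulin heavy chain, rose by 0.41 on the log2 scale (edgeR adjusted p = 3.25e-05). Cd38 fell most among the genes of this list with at least 1 CPM, from 137 ± 15.5 CPM to 65.5 ± 4.93 CPM (SD, n = 4, log2 fold change -1.07, edgeR adjusted p = 1.78e-06). Which cells of the preparation carry Cd38 was not tested, so its fall cannot be read as one of plasma cells.

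Irf4, the factor that acts with Blimp-1 in plasma cells and is also used by dendritic cells, had a log2 fold change of 0.07 with a 95% interval from -0.11 to 0.24 (edgeR adjusted p = 0.509). Tnfrsf17, which encodes the plasma cell survival receptor BCMA, had 0, 2, 2 and 5 counts in C57BL/6 mice and 3, 6, 6 and 5 counts in B6.SLE123 mice, a difference that was not detectable at this depth. Bhlha15, which encodes the secretory cell factor MIST1, had 19 to 30 counts in C57BL/6 mice and 27 to 63 counts in B6.SLE123 mice (log2 fold change 0.71, edgeR adjusted p = 0.0559), again with replicates 1 and 3 of B6.SLE123 as the higher pair. Slamf7, a surface receptor of plasma cells that dendritic cells and macrophages also carry, was the most abundant gene of this list at 355 ± 19.6 CPM and 323 ± 10.6 CPM (SD, n = 4, log2 fold change -0.14, edgeR adjusted p = 0.0333), and this call was lost on leaving out C57BL/6 replicate 1, 2 or 4 or B6.SLE123 replicate 1 or 3 (edgeR adjusted p between 0.0585 and 0.0819). Ell2 and Bhlha15 were named after their values were seen.

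**Figure D2:**
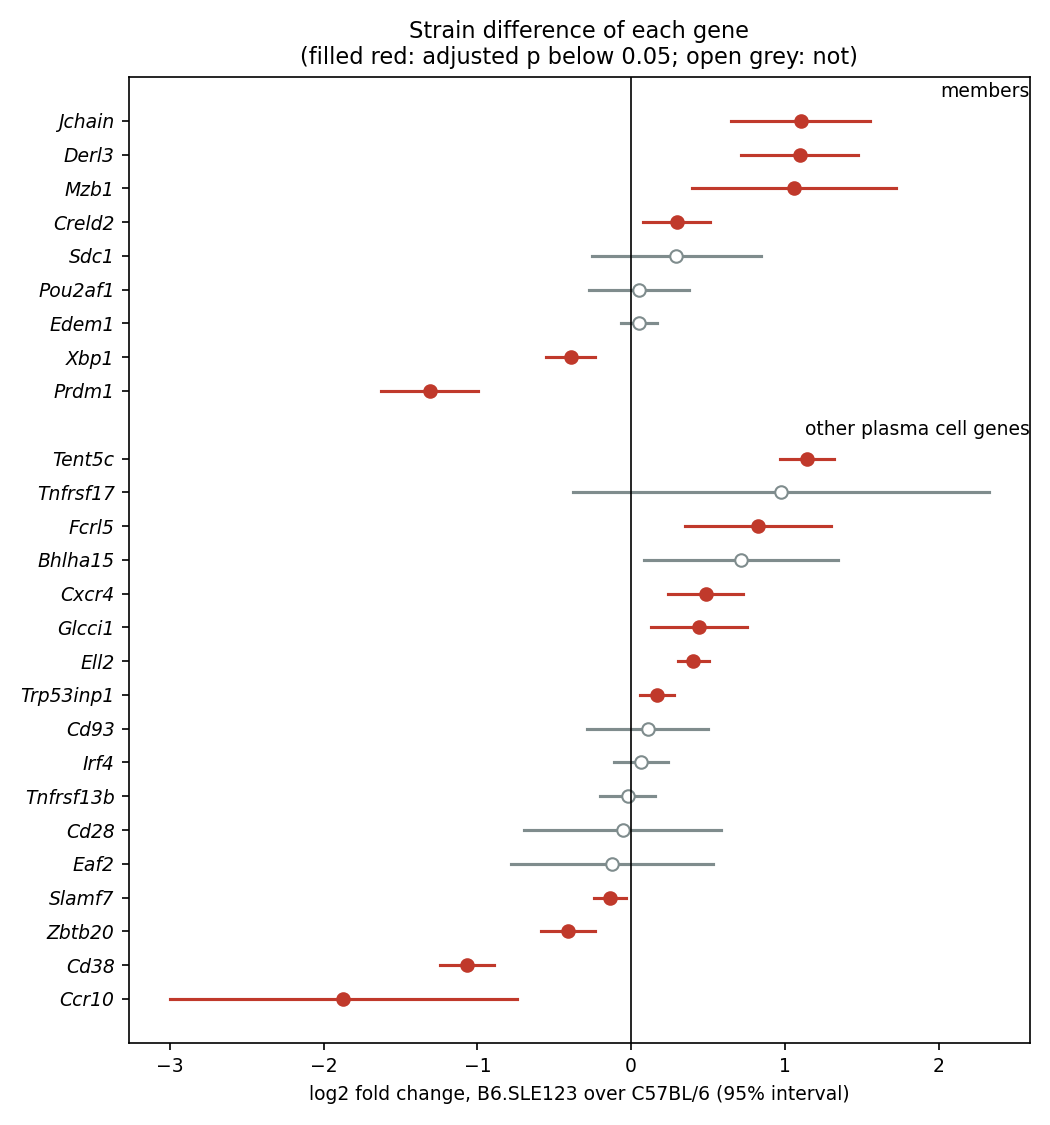
Log2 fold change of B6.SLE123 over C57BL/6 with its 95% interval for the 9 members and for 17 other plasma cell genes, from edgeR's quasi-likelihood fit over 4 mice of each strain. Jchain, Derl3 and Mzb1 lie near 1.1, Prdm1 lies at -1.31, and the other plasma cell genes spread to both sides of 0.

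The general secretory machinery that plasma cells expand moved in both directions and by small amounts. Of 94 genes for targeting and translocation into the ER, folding, N-glycosylation, ER-associated degradation and transport to the Golgi, 93 were in the table (Kdelr3 had no row). The test was passed by 37, with 20 higher and 17 lower, which is 39.8% against 53.4% of all genes (36 genes without B6.SLE123 replicate 3). Their median log2 fold change was -0.01, 0 of them changed more than 2-fold, and 91 of 93 had a log2 fold change between -0.5 and 0.5. For the single lists, genes counted as rising or falling are those that passed the test, from 31.6% to 66.7% of a list. In targeting and translocation 5 of 24 genes rose and 3 fell, from Spcs3, a signal peptidase subunit (0.25, edgeR adjusted p = 0.00173), to Sec62, a translocation factor (-0.32, edgeR adjusted p = 0.000933), and the most abundant gene Ssr1 was at 259 CPM in both strains. In folding 3 of 25 rose and 6 fell, including the oxidase gene Ero1a (listed as Ero1l, 0.37, edgeR adjusted p = 0.000312) and the nucleotide exchange factor gene Sil1 (-0.63, edgeR adjusted p = 1.72e-05). The chaperone Calr, the most abundant of this list, had a log2 fold change of -0.03 (95% interval from -0.21 to 0.15).

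Among N-glycosylation genes 3 of 10 rose and 1 fell, with Tusc3 (0.49, edgeR adjusted p = 0.00629) and Dad1 (-0.22, edgeR adjusted p = 0.00298) at the ends and Rpn2, the most abundant, at 194 ± 9.08 CPM and 195 ± 4.47 CPM (SD, n = 4). In ER-associated degradation 6 of 15 genes rose and 4 fell, 66.7% called against 53.4% of all genes. The mannosidase gene Man1b1 (0.31, edgeR adjusted p = 9.54e-05) and the segregase gene Vcp (0.23, edgeR adjusted p = 0.00121) were among the rises, and the ubiquitin ligase gene Syvn1 (-0.34, edgeR adjusted p = 0.00393) was the largest fall. In ER to Golgi transport 3 of 19 genes rose and 3 fell, with the coat gene Sec23b at 0.37 (edgeR adjusted p = 0.000548), Mcfd2, the partner of the cargo receptor LMAN1, at -0.81 (edgeR adjusted p = 3.15e-06), and the abundant cargo receptor gene Lman2 at -0.01 to 2 decimals (edgeR adjusted p = 0.819).

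The ER stress response element printed above for Derl3 and Creld2 was also found in 6 of 19 folding genes with a promoter window (Hspa5, Hsp90b1, Calr, Canx, Pdia6 and Dnajc3), of which 0 rose and 1, Canx, fell (-0.29, edgeR adjusted p = 0.00156). In the other ER secretory lists only Syvn1 held it, and Syvn1 fell too (-0.34, edgeR adjusted p = 0.00393). Among all genes tested, 20 carried the element, Derl3 and Creld2 included, of which 6 were higher and 5 lower (55.0% called), and their median log2 fold change was -0.11. Derl3 differed by about 2-fold while Hspa5, the chaperone BiP and the classical carrier of this element, was at 715 ± 73.6 CPM and 711 ± 25.0 CPM (SD, n = 4). The part that the element has in these values was not tested.

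Of 19 unfolded protein response genes 8 were called, 42.1% against 53.4% of all genes (7 without B6.SLE123 replicate 3). Of its 3 sensors 1 passed the test. Atf6 rose from 159 ± 9.78 CPM to 197 ± 5.46 CPM (SD, n = 4, log2 fold change 0.31, edgeR adjusted p = 0.00033), Ern1 had a log2 fold change of 0.10 (edgeR adjusted p = 0.0685) and Eif2ak3, which encodes PERK, of -0.06 (edgeR adjusted p = 0.418). Of the 6 sensor and processing genes 2 were higher and 0 lower. In the PERK and ATF4 arm, which does not run through Xbp1, 3 of 13 genes were higher and 3 lower. Psat1, a serine synthesis enzyme gene, rose by 0.73 on the log2 scale (edgeR adjusted p = 2.4e-05), Ppp1r15a, which encodes the stress-induced phosphatase subunit GADD34, fell by 0.51 (edgeR adjusted p = 5.96e-05), and Ppp1r15b, the constitutive counterpart and the most abundant gene of this list, rose by 0.17 (edgeR adjusted p = 0.00231).

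**Figure D3:**
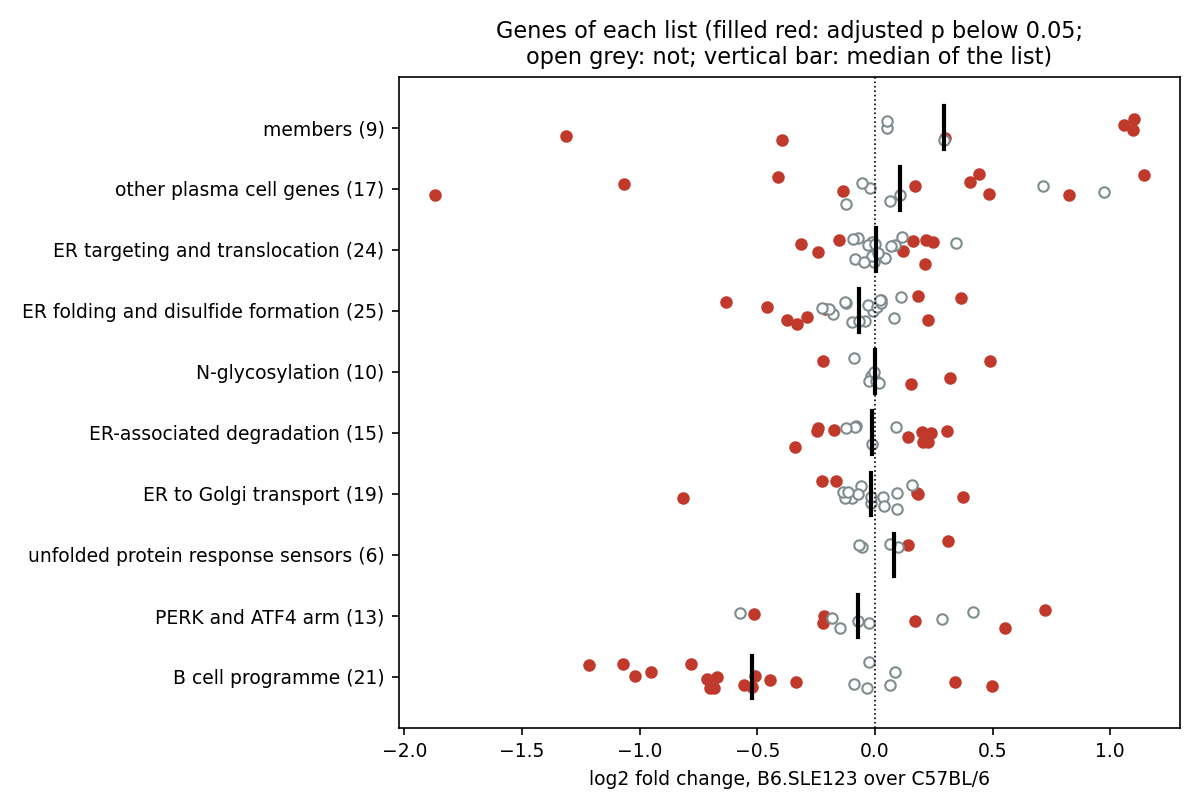
Log2 fold change of B6.SLE123 over C57BL/6 for every gene of 10 lists, the number of genes being given in brackets, with the median of each list as a vertical bar. The 5 ER secretory lists centre on 0, the members reach from -1.31 to 1.10, and the B cell programme has a median of -0.52.

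Genes of the B cell programme, many of which Blimp-1 represses in plasma cells, were mostly lower: of 21 genes 14 were lower and 2 higher, 76.2% called in all, where 26.6% of all genes were lower and 26.7% higher. The median log2 fold change of the list was -0.52, and 16 genes were called without B6.SLE123 replicate 3 too. Blnk, an adaptor of the B cell receptor, fell most, from 43.8 ± 5.70 CPM to 18.9 ± 3.95 CPM (SD, n = 4, log2 fold change -1.22, edgeR adjusted p = 3.67e-05), and Pax5, the factor that holds B cell identity, had a log2 fold change of -0.52 (edgeR adjusted p = 0.00112) and was named after its values were seen. Ciita, the master regulator of MHC class II, which dendritic cells transcribe as well, was the largest rise of this list (0.50, edgeR adjusted p = 2.64e-05). The red pulp macrophage markers fell as well (median log2 fold change -2.45), and their part in the falls of this list, that of Blnk included, was not tested.

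The members were also set against the 4 B cell markers, a comparison chosen after the values were seen. The log2 ratio of a member to the mean of the markers was higher in B6.SLE123 mice by 1.52 for Jchain, 1.46 for Mzb1, 1.52 for Derl3, 0.77 for Creld2, 0.50 for Pou2af1 and 0.51 for Edem1, in each case without overlap between the strains. Prdm1 was lower by this measure too, with a log2 difference of -0.87, again without overlap. For Sdc1 (0.69) and Xbp1 (0.07) the strains overlapped. Because 3 of the 4 markers fell, this ratio raises every member by the same amount, so it is no evidence of a rise in any member. Pou2af1 and Edem1 did not pass the test on their own, and the CPM values of Creld2 overlapped between the strains.

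**Figure D4:**
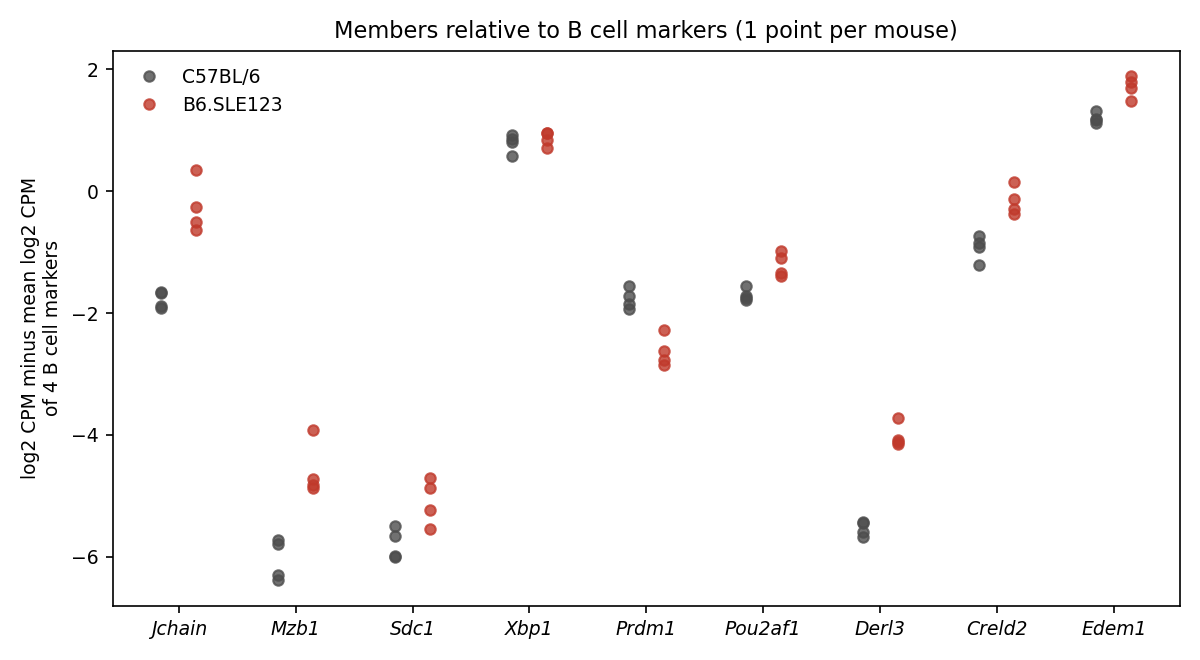
Log2 CPM of each member minus the mean log2 CPM of the B cell markers Cd79a, Cd79b, Ms4a1 and Pax5, with 1 point per mouse. Jchain, Mzb1 and Derl3 are about 1.5 higher in B6.SLE123 mice, Prdm1 is lower, and the strains overlap for Sdc1 and Xbp1. The markers were mostly lower in B6.SLE123 mice, which by itself raises every member on this scale.

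The genes whose pattern over the 8 mice was nearest to that of Jchain, by the root mean square difference of centred log2 CPM among 10619 other genes with a mean of at least 100 counts, were Hsph1, a heat shock protein gene (0.21), Cep85, a centrosomal protein gene (0.22), and the Fc receptor-like gene Fcrl5 (0.22). Their log2 fold changes were 1.04, 0.84 and 0.82. For Xbp1 the nearest were AC163616.1 (0.04), Pcyox1l (0.05) and Pomt1 (0.05), with log2 fold changes of -0.42, -0.35 and -0.39.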

How the data were processed

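CD11c-positive spleen cells were sequenced from females of both strains, 4 samples each. The authors checked reads with FastQC, used cutadapt for trimming, STAR for alignment (mm10) and featureCounts for counting, and deposited raw counts per protein-coding gene and mouse. Versions, annotation and strand setting are not given in the sources used here. The larger of the strain medians was at least 5 counts for every gene, so rarer genes were not tested. The deposited table also holds the authors' DESeq2 comparison (mean, fold change, p-values), which was not used.

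The test was the quasi-likelihood F test of edgeR 4.0.16 in R 4.3.3 on TMM-scaled counts. No gene was filtered, and p-values were adjusted after Benjamini-Hochberg across 13786 genes. In the table, 21 gene names that had turned into dates were restored. Intervals (95%) come from the same fit. Log2 CPM used a prior count of 2. In a simulation of 13786 genes that changed 200, the test recovered 94% of those altered at least 2-fold, and 15 of its 197 calls fell on unchanged genes. The simulation changed far fewer genes than the 7356 called here, and in random directions, so these rates may not hold for the data. Exon lengths and overlaps came from GENCODE M21, in which 13663 genes have the coordinates of the table. The members and gene lists were chosen with earlier results of these data known. Genes named were the members, Slamf7, Irf4, Tnfrsf17, Ern1, Atf6 and Eif2ak3, the largest called rise and fall (at least 1 CPM) and the most abundant gene of each list, and the genes nearest in pattern to Jchain and Xbp1. Derl1, Derl2, Hspa5 and Canx were named outside this rule, and setting them beside members was not planned. Alternatives were relative log expression factors, a minimum of 10 counts per sample, DESeq2 1.42.0, limma-voom (limma 3.58.1), a replicate block, a more than 2-fold change, and each mouse left out. The labels number the samples but do not state that each is 1 separate animal. They are called mice here, and p-values measure only the spread between these samples, which may be technical. Some genes of the B cell lists are not reported here and were left out of their counts.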

Additional observations from a re-analysis of the deposited data

Results flagged for a closer look

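Among 86 groups of 4 mice (43 genes in 2 strains), 8 had a mouse whose distance to the nearest other mouse was above Dixon's 95% critical value as a share of the range of the group. Chance would give about 4.3. Many of the genes were picked by their values in these same mice, so this figure is only a guide and no test. For the members, Jchain was at 6.35 log2 CPM in B6.SLE123 replicate 3 against a median of 5.45 in its strain, and Edem1 was at 7.8 log2 CPM in the same mouse against a median of 7.6. Fcrl5 stood apart in this mouse too, at 4.13 log2 CPM against 3.28. It was named for its closeness in pattern to Jchain, so its flag is not independent of that of Jchain. The other 5 were in different mice: Irf4 at 6.99 log2 CPM in B6.SLE123 replicate 4 (median 6.71), Ciita at 10.44 in B6.SLE123 replicate 2 (median 10.33), Sil1 at 4.69 in C57BL/6 replicate 2 (median 4.87), Cep85 at 7.83 in C57BL/6 replicate 3 (median 7.49) and Pomt1 at 3.88 in C57BL/6 replicate 2 (median 4.07), all in log2 CPM.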

How the results depend on the processing

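Jchain, Mzb1, Derl3, Xbp1 and Prdm1 kept their direction and passed the test under every alternative run, except Xbp1 where a more than 2-fold change was required. Without a mouse in turn, the members called were from 5 to 6, all genes called from 6496 to 7013, other plasma cell genes from 8 to 11, ER secretory genes from 32 to 41, and unfolded protein response genes from 7 to 9, while B cell programme genes called were 16 each time. With a more than 2-fold change required, 1524 genes were called against 7356, a stricter rule by construction. Directions reversed for values near 0: across the fits without a mouse, Pou2af1 was from -0.048 to 0.156, Edem1 from -0.006 to 0.074, Irf4 from -0.021 to 0.124, Ssr1 from -0.028 to 0.018, Calr from -0.1 to 0.023, Rpn2 from -0.027 to 0.02 and Lman2 from -0.048 to 0.009, and Rpn2 was -0.008 among genes with a minimum of 10 counts per sample. The labels do not say that a replicate number links samples of the strains, and deviations of same-numbered mice correlated between -0.0288 and 0.115, so they were not taken as pairs. With the replicate block, Jchain was 1.06, the members called were 6 and all genes called 7183, and no member's call changed. Mzb1, Derl3 and Sdc1 had low counts, 24 to 162 per mouse. Counting error adds there to the spread between mice, and the part of each was not separated.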

Other observations

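B6.SLE123 replicate 3 was the highest mouse of its strain for 9 of 9 members and for 9 of 17 other plasma cell genes, and for 24 of 93 ER secretory genes, of which 42 were highest in B6.SLE123 replicate 1. Among C57BL/6 mice, replicate 3 was the highest for 5 of 9 members and for 48 of 93 ER secretory genes, where it was the highest for 24.0% of all genes.

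Ccr10, a homing receptor of IgA plasma cells, had 8, 13, 15 and 21 counts in C57BL/6 mice and 4, 5, 8 and 0 counts in B6.SLE123 mice (edgeR adjusted p = 0.00996). Cxcr4, the receptor that retains plasma cells in bone marrow and is carried by many leukocytes, was at 89.7 ± 3.39 CPM and 126 ± 23.7 CPM (SD, n = 4, edgeR adjusted p = 0.00343), highest in B6.SLE123 replicate 3 at 155 CPM. Both were named after their values were seen.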
